A study of Rattus norvegicus with 12 samples.

Results

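The 9 libraries from rats with a ligated bile duct were compared with the 3 libraries from sham rats, using all 12 libraries of the series. The ligated libraries were every library whose title carries BDL, namely 3 without a vector (BDL), 3 from rats given an adeno-associated virus (AAV) that carries the gene of green fluorescent protein (AAV-GFP) and 3 from rats given an AAV that carries the lymphatic growth factor VEGFC (AAV-VEGFC). The average of the 3 ligated group means, each with the same weight, was set against the sham mean, and the genes described are chiefly those whose fitted change had 1 sign in all 3 ligated groups. All rats were male Sprague-Dawley rats, with the age given as postnatal day 60, and the tissue was brain, which the design text calls middle brain. Ligation had lasted 4 weeks in all 3 ligated groups. Each rat of the vector groups received 20 µl with 1.5e+11 genome copies in the cisterna magna, the fluid space under the cerebellum (the label writes the exponent without a superscript). No injection is stated for the BDL or the sham group, so vector, injection and carrier fluid cannot be told apart in the vector groups. The sources used here do not give the promoter or serotype of the vectors. The groups hold 3 libraries each, 3 rats per group by the design text.

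Bile duct ligation blocks the outflow of bile, and the cholestasis and fibrosis that follow make it a common model of cirrhosis and of hepatic encephalopathy, the disturbance of brain function in liver failure. Ammonia and inflammatory signals that reach the brain in liver disease are known to act on astrocytes, on microglia and on the cells of the blood-brain barrier. Immediate early genes are switched on within minutes by synaptic activity through calcium and ERK signalling, and their transcripts decay fast, so they are widely read as markers of recent neuronal activity.

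Totals ran from 40296297 to 51669067 counts per library, and 12850 genes were tested. The share of 18S ribosomal RNA (Rn18s) ran from 0.137% to 0.306% of counts in the 6 sham and BDL libraries and from 0.43% to 1.16% in the 6 vector libraries. The first principal component, with 28.2% of the variance, had negative scores in all sham and BDL libraries and positive scores in all vector libraries. Single libraries stood apart: sham 2 held 245 CPM (counts scaled to library size) of Ttr, a choroid plexus gene, against 1.31 in sham 1 and 1.03 in sham 3. The library AAV-GFP 1 had 47.8 CPM of the hypothalamic Oxt and 235 CPM of Cd74, and AAV-VEGFC 1 had the lowest mean correlation with the rest, 0.968. Slc17a7, which marks cortical excitatory neurons, ran from 1249 to 2028 CPM, whereas Th, the enzyme of dopamine synthesis that marks the midbrain's dopamine neurons, ran from 0.652 to 1.7 CPM. Changes below are log2 fold changes ± SE, and a gene is called at an adjusted p under 0.05 by edgeR's quasi-likelihood test, adjusted after Benjamini-Hochberg over all genes tested.

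In the mean of the ligated groups, 388 genes rose (3.02% of those tested) and 899 fell (7%), 1287 genes or 10% in all. Of these, 374 rose with a positive change in each ligated group (2.91%) and 735 fell with a negative one (5.72%). The 3 ligated groups were compared with the same sham libraries, and 60.4% of all tested genes had 1 sign in the 3 groups without any test. All 9 ligated libraries lay above the sham libraries for 245 of the 374 and below them for 322 of the 735, and 5.05% of all tested genes lay above, 4.62% below and 9.67% on either side. The genes were chosen from these same library values, so a larger share among them follows from the choice. The size was small for most: 73 of the 374 and 74 of the 735 changed by at least 2-fold. Median log2 fold changes of the 374 were 0.23 in BDL, 0.47 in AAV-GFP and 0.55 in AAV-VEGFC. Those of the 735 were -0.14, -0.54 and -0.58 in the same order, against a median of 0.01 over all tested genes in each of the 3 groups.

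The shared sign did not mean a shared size. Between the vector groups and BDL, 117 of the 374 and 501 of the 735 differed, each with the larger change in the vector groups, and the background of that comparison was 12.6% of all tested genes, 3.53% higher and 9.04% lower. The 178 remaining called genes had mixed signs, and all 178 differed between the vector groups and BDL. A test for any difference among the 3 ligated groups called 963 genes (7.49%), with 63 of the 374 and 378 of the 735 among them. Single contrasts were taken in the model of all 12 libraries, so their spread includes that of the other groups. There, BDL against sham called 14 genes (0.109%, with 0.0934% higher and 0.0156% lower). AAV-GFP against sham called 1578 (12.3%, 3.95% higher and 8.33% lower) and AAV-VEGFC against sham 2394 (18.6%, 7.98% higher and 10.6% lower). With only the 2 compared groups fitted, the counts were 332, 3756 and 702 in the same order. At an unadjusted p under 0.05, the contrast of BDL in the model of all 12 libraries passed for 176 of the 374 and 169 of the 735. It passed for 5.9% of all tested genes. The 374 and 735 were chosen by a mean and a sign that include BDL and the same sham libraries, so these counts describe them and support nothing. The count for all ligated libraries was 378 without sham 1, 463 without sham 3, 678 without sham 2, 3199 without AAV-VEGFC 1 and 3387 without sham 2, AAV-GFP 1 and AAV-VEGFC 1 together.

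**Figure D1:**
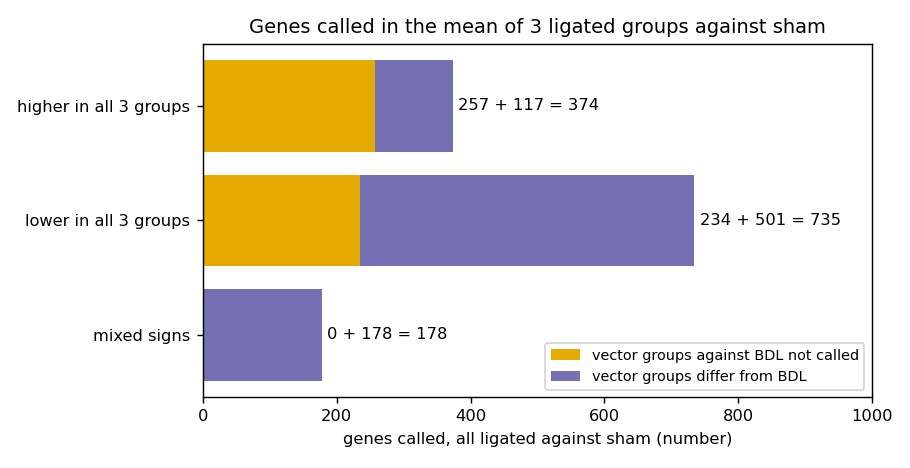
Bars count the genes called in the mean of the 3 ligated groups against sham (x axis, number of genes), split by whether the vector groups differed from BDL. Of the genes lower in all 3 groups, 501 of 735 differed between vector groups and BDL, against 117 of the 374 genes higher in all 3.

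In the model of all 12 libraries, 14 genes (0.109%) were called in the contrast of each of the 3 ligated groups against sham. The 12 that rose were Slc4a1, Alas2, Hba1, Hbb, Hbb-b1, Alox15, Napsa, Mmp8, Lrg1 and 3 genes named only by a locus number, and the 2 that fell were Egr3 and Ccdc77. A fit with 1 mean for all 9 ligated libraries counts differences between the ligated groups as spread, and it called 64 genes, 32 in each direction, all of them among the 1287. Named genes that kept the call there were Slc4a1, Alas2, Hba1, Hbb, Hbb-b1, Alox15, S100a8, S100a9, Mmp8, Napsa, Lrg1, Slc38a5, Rsad2, Vwf, Abcb1a, Fn1 and Mrpl30 among the rises. Among the falls they were Arc, Egr3, Fosb, Nr4a1, Ier5, Klf10, Trib1, Nptx2, Dnajb5, Gpr3, Spry4, Spred1, Ccdc77, Fat2 and Serinc2. Every other gene described below as risen or fallen lost its call in that fit.

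Transcripts of red blood cells rose in all ligated libraries. Slc4a1, which exchanges chloride and bicarbonate across the red cell membrane, stood at 0.137, 0.448 and 0.263 CPM in the sham libraries and at 5.79 (lowest), 8.76 (median) and 9.99 CPM (highest) in the 9 ligated libraries. Its change of 4.86 ± 0.33 (adjusted p = 2.98e-05) was 4.79 in BDL, 4.94 in AAV-GFP and 4.86 in AAV-VEGFC. No ligated library came near the sham range. Alas2, the first enzyme of haem synthesis in erythroid cells, stood at 1.15, 1.79 and 1.39 CPM in sham and at 5.38, 13.4 and 17.3 CPM (lowest, median, highest) in the ligated libraries, a change of 3.11 ± 0.25 (adjusted p = 4.6e-05). Hba1, an alpha globin gene, stood at 53.2, 73.2 and 57.6 CPM in sham and at 207, 381 and 427 CPM in the ligated libraries, a change of 2.56 ± 0.18 (adjusted p = 2.98e-05). Hbb and Hbb-b1, beta globin genes, rose by 2.69 ± 0.27 (adjusted p = 0.000196) and 2.69 ± 0.22 (adjusted p = 4.7e-05). The globin genes are near-identical copies whose reads the counting could split, so the share of each is uncertain.

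Of 22 red cell genes with a row in the counts, 18 were tested, and 9 of these rose and none fell, with 3.02% of all tested genes higher. Slc4a1, Hba2 and Hemgn passed the filter on low counts only through ligated libraries, so the count is a description. Alox15, a lipoxygenase of maturing red cells, of eosinophils and of macrophages, stood at 2.42, 2.45 and 1.77 CPM in sham and at 12.2, 24.3 and 31.4 CPM in the ligated libraries, a change of 3.41 ± 0.27 (adjusted p = 4.01e-05). Hemgn, an erythroid nuclear protein, rose by 2.78 ± 0.61 (adjusted p = 0.016) and Bpgm, which makes the red cell's 2,3-bisphosphoglycerate, by 0.26 ± 0.05 (adjusted p = 0.00771), with overlap of the Bpgm values. Hba2 had 3 reads over the sham group and 84 over the ligated libraries (adjusted p = 0.0226). The Hba2 call was lost without any 1 sham library, that of Hemgn without sham 2, and that of Bpgm without sham 1 or sham 3, at adjusted p-values up to 0.123, 0.0638 and 0.0853. Bpgm differed between vector groups and BDL by 0.28 (adjusted p = 0.00485) and Hbb-b1 by 0.71 (adjusted p = 0.0424). Another 4 tested members had a negative change in all 3 groups, none of them called. Without sham 2, AAV-GFP 1 and AAV-VEGFC 1, 8 members were called higher and 2 lower, in a fit with 1481 genes higher and 1906 lower. The sum over all 22 listed genes with a row was 346 to 388 CPM in sham, 663 to 1112 in BDL, 1079 to 1168 in AAV-GFP and 1227 to 1582 in AAV-VEGFC. It includes members that did not rise. The sham means of Hba1 and Hbb were 61.3 and 61.8 CPM, so much of the sham sum came from other members, and the sum is not a red cell level. In bulk tissue, more cells of a type and more RNA per cell cannot be told apart, and the sources used here do not give how much blood stayed in each brain.

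**Figure D2:**
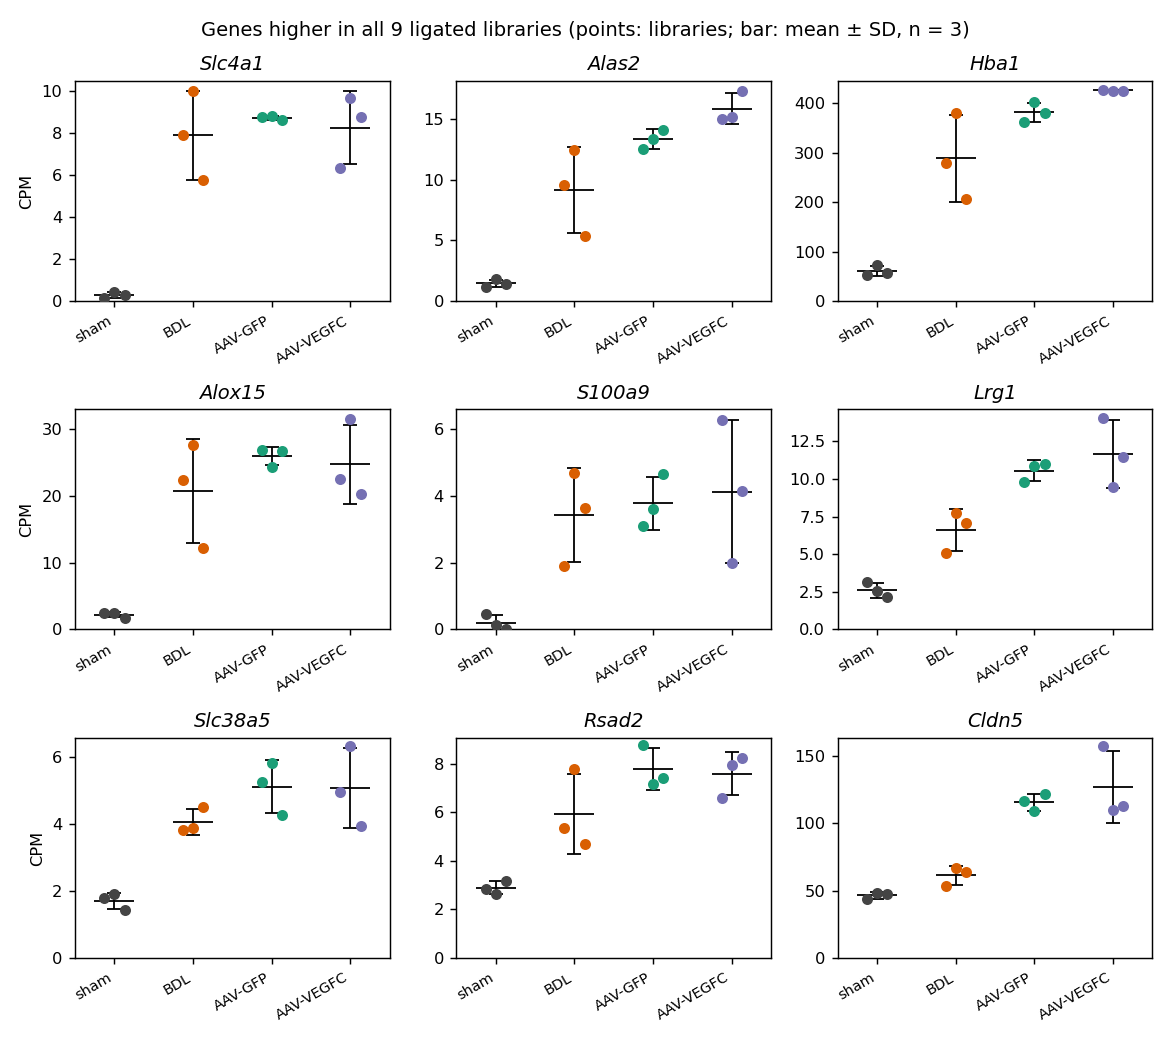
Each panel shows 1 gene in CPM (y axis, from 0) for the 4 groups, with a point per library and the mean ± SD of 3 libraries. Slc4a1 sits between 5.79 and 9.99 CPM in the 9 ligated libraries and under 0.5 in sham, whereas Cldn5 is higher in the vector groups than in BDL.

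The promoters of Alas2 and Hbb are printed because these genes rose in every ligated group. They are the 250 bases before the transcript start (RefSeq, GRCr8), chrX:22895200-22895449 on the plus strand and chr1:167663722-167663971 on the minus strand. Capitals mark AGATAA, the letters bound by erythroid GATA factors, in Alas2, and CCACACCC, the CACC box letters, in Hbb.
Alas2: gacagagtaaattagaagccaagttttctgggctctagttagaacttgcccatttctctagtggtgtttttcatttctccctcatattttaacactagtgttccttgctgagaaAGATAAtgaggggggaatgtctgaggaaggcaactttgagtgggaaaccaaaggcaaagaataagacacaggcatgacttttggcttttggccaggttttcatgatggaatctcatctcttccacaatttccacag
Hbb: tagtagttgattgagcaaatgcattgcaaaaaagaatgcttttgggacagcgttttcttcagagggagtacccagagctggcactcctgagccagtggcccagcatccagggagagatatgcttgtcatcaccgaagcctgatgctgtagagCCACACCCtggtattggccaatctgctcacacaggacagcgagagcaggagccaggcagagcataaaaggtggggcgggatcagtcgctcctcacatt
On either strand, AGATAA was in 4 of 17 red cell promoters found in RefSeq and in 10.3% of all 33469 promoters, and CCACACCC in 1 of 17 and in 2.84%. In Alas2 the motif lay 136 to 131 bases before the start, in Hbb 98 to 91. The other promoters with AGATAA were of Fech, which was not called, and of Trim10 and Trim58, which did not pass the filter on low counts. A match is a description of letters, not of a bound site.

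Some genes of the neutrophil list, S100a8, S100a9, Mmp8 and Napsa, rose from almost nothing. S100a8 and S100a9, the calprotectin subunits, changed by 5.06 ± 0.81 (adjusted p = 0.00324) and 4.18 ± 0.72 (adjusted p = 0.0047). S100a9 stood at 0.469, 0.122 and 0 CPM in sham and at 1.91, 3.64 and 6.26 CPM in the ligated libraries, and S100a8 at 0, 0.183 and 0 CPM in sham and 0.998, 2.42 and 3.66 CPM in the ligated ones. Without sham 1 the change of S100a9 was 5.79, and without sham 2, the only sham library with S100a8 reads, no sham level of S100a8 was left. Mmp8, neutrophil collagenase, had no read in sham and 0.279, 0.653 and 1.1 CPM in the ligated libraries, at least 31.1-fold higher (adjusted p = 0.00141). Napsa, an aspartic protease, had no read in sham and 0.599, 0.908 and 1.64 CPM, at least 46.2-fold higher (adjusted p = 0.000215). The bounds take 3 counts over the sham group as the floor and cover counting error only.

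S100a8, S100a9, Mmp8 and Napsa passed the filter on low counts only through ligated libraries, so they could be tested only because they were higher there. Of the 20 neutrophil genes with a row in the counts, 13 were tested, 5 were called higher, these 4 among them, and none lower, a count that supports nothing beyond the single values. Napsa was put on the list with earlier results of these libraries known. The defining granule genes Elane, Mpo, Ltf and Retnlg did not pass the filter on low counts. Summed over the list, the level was 32 to 34.1 CPM in sham, 33.1 to 51.6 in BDL, 55.3 to 62.9 in AAV-GFP and 45.2 to 63.5 in AAV-VEGFC, so sham and BDL overlapped. Lrg1, a leucine-rich glycoprotein of the acute phase and of vessels, stood at 3.15, 2.53 and 2.13 CPM in sham and at 5.05, 9.78 and 14 CPM in the ligated libraries, a change of 1.84 ± 0.18 (adjusted p = 0.000188). It was 0.75 larger in the vector groups than in BDL (adjusted p = 0.0176). Lrg1 was the 1 called member of 9 tested acute phase genes, beside 10% of all tested genes called. Cp, ceruloplasmin, had a change of 0.61 ± 0.19 (adjusted p = 0.0713), and was called without AAV-GFP 1 or AAV-GFP 2 (lowest adjusted p = 0.0441).

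Of 24 tested immediate early transcription factors 9 fell, against 7% of all tested genes, and 1 rose. Egr3 stood at 92.8, 83.9 and 88.1 CPM in sham and at 43.8, 46.8 and 55.7 CPM (lowest, median, highest) in the ligated libraries, a change of -0.88 ± 0.07 (adjusted p = 3.58e-05). The 3 groups changed by -0.78 in BDL, -0.95 in AAV-GFP and -0.91 in AAV-VEGFC, and no ligated library reached the sham range. Nr4a1, an orphan nuclear receptor, stood at 157, 184 and 142 CPM in sham against 47.8, 66.9 and 112 CPM, a change of -1.14 ± 0.19 (adjusted p = 0.00453). Fosb, an AP-1 subunit, stood at 41.3, 38.3 and 38.4 CPM in sham against 13.6, 16.4 and 29.8 CPM, a change of -1.09 ± 0.18 (adjusted p = 0.00445). Ier5 fell by 0.89 ± 0.11 (adjusted p = 0.000718) and Klf10, a zinc finger repressor, by 0.95 ± 0.13 (adjusted p = 0.00131).

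Egr1 and Egr2 fell further in the vector groups than in BDL by value. Egr2 stood at 35, 34.3 and 42 CPM in sham and at 2.77, 5.61 and 22.2 CPM in the ligated libraries, a change of -2.38 ± 0.32 (adjusted p = 0.00126). It was -1.41 in BDL, -3.27 in AAV-GFP and -2.46 in AAV-VEGFC, a difference of -1.45 between vector groups and BDL (adjusted p = 0.0265). Egr1 stood at 293, 252 and 239 CPM in sham and at 62.9, 95.8 and 179.7 CPM in the ligated libraries, a change of -1.32 ± 0.20 (adjusted p = 0.00259), and its difference of -0.65 between vector groups and BDL was not called (adjusted p = 0.0827). Fos stood at 41.9, 43.3 and 42.9 CPM against 10.4, 20.5 and 35.4 CPM, a change of -1.11 ± 0.23 (adjusted p = 0.0123), and Egr4 fell by 0.83 ± 0.16 (adjusted p = 0.00754), with BDL 3 above sham 3. The Fos call was lost without any 1 sham library and that of Egr4 without sham 1, at adjusted p-values up to 0.0638 and 0.0699.

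Over the 24 factors the median was -0.55, and 16 of the 24 had a negative change in all 3 groups. The riser was Ier3, a stress-induced survival factor, by 0.88 ± 0.19 (adjusted p = 0.0167), lost without sham 1 or sham 3 (adjusted p up to 0.11). Leaving out 1 library at a time gave 7 to 11 falls, and the fit with 1 mean gave 5. Summed over the list, sham libraries held 1499.5 to 1583.5 CPM, BDL 863 to 1187, AAV-GFP 871 to 925 and AAV-VEGFC 915 to 1206, so no ligated library overlapped sham. The sources used here do not give the hour or order in which the rats were killed.

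**Figure D3:**
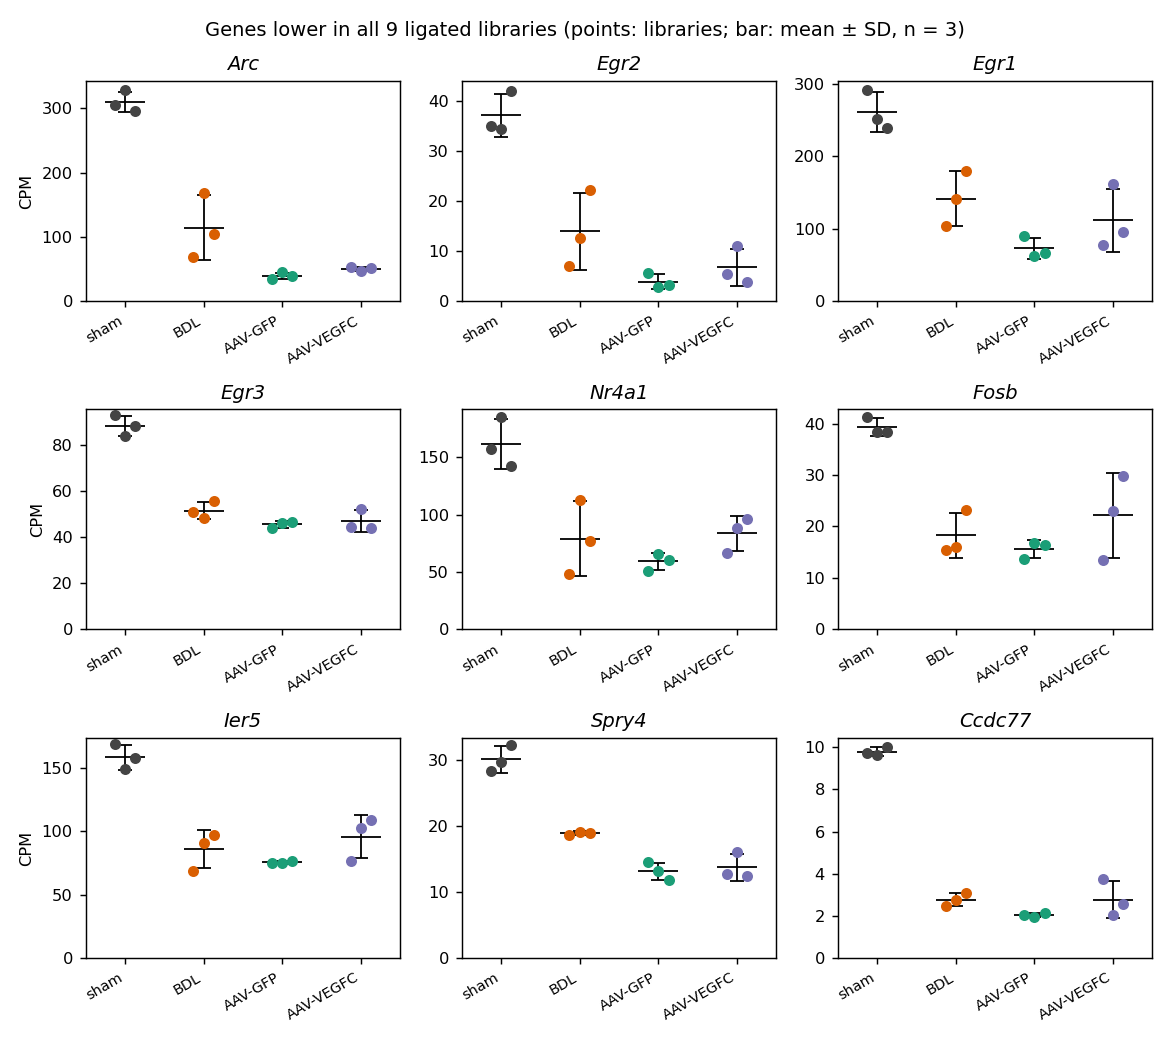
Each panel shows 1 gene in CPM (y axis, from 0) for the 4 groups, with a point per library and the mean ± SD of 3 libraries. Arc sits between 297 and 328 CPM in sham and at or under 169 in the ligated libraries, and the single ligated libraries of Egr1, Nr4a1 and Fosb spread more widely than those of Egr3.

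The promoters of Egr2 and Nr4a1, which fell in the mean of the ligated groups, are printed because they carry letters read by activity-dependent factors. They are the 250 bases before the start (RefSeq, GRCr8), chr20:21054442-21054691 on the minus strand and chr7:134259888-134260137 on the plus strand. Capitals mark a CArG box, the motif of serum response factor, in Egr2, and the core of the cAMP response element (TGACG in either orientation) in both.
Egr2: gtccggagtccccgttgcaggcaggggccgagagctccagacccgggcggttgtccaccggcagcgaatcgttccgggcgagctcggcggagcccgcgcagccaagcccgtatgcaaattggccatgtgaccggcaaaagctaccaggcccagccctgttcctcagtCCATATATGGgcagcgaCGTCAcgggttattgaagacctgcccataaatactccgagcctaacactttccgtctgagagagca
Nr4a1: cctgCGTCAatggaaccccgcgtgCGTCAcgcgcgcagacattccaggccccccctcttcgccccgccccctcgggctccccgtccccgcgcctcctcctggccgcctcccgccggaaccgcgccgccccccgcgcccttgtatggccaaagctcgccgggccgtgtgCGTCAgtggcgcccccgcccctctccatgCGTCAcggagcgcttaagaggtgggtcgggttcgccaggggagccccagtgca
In Egr2 the CArG box lay 83 to 74 bases before the start and TGACG 66 to 62. Nr4a1 held TGACG 4 times, the nearest 53 to 49 bases before the start. The CArG box was in 2 of 17 promoters of the list (Egr1 and Egr2) and in 1.5% of all promoters, and TGACG in 11 of 17 and in 18.2%. Of the 11 genes with TGACG, only Egr1, Egr2, Egr4 and Nr4a1 were called lower. Promoters of Egr3 and Fos had no entry in the table used.

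Effectors that neurons make after synaptic activity fell as well. Arc, which removes AMPA receptors from synapses, stood at 305, 328 and 297 CPM in sham and at 35, 51.1 and 169 CPM in the ligated libraries, a change of -2.35 ± 0.18 (adjusted p = 3.58e-05). The change was -1.44 in BDL, -2.97 in AAV-GFP and -2.63 in AAV-VEGFC, and the vector groups lay 1.36 below BDL on the log2 scale (-1.36, adjusted p = 0.00128). Nptx2, a secreted pentraxin of excitatory synapses, stood at 88.3, 86.4 and 90.2 CPM in sham against 53.9, 65.8 and 68.8 CPM, a change of -0.48 ± 0.07 (adjusted p = 0.00174) that was alike in size in the groups, at -0.43, -0.45 and -0.55. Trib1, a pseudokinase that targets proteins for degradation, fell by 1.29 ± 0.15 (adjusted p = 0.000555). Homer1, a scaffold of metabotropic glutamate receptors, stood at 300.0, 249 and 289 CPM in sham against 98.3, 171 and 197 CPM, a change of -0.73 ± 0.15 (adjusted p = 0.0136). Ptgs2, cyclooxygenase 2, fell by 0.80 ± 0.18 (adjusted p = 0.0162), Plk3, a stress kinase, by 0.83 ± 0.17 (adjusted p = 0.0118) and Pcsk1, a prohormone convertase, by 0.50 ± 0.11 (adjusted p = 0.0181).

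Inhba, the activin A subunit, fell by 1.11 ± 0.24 (adjusted p = 0.0162), from 6.86, 5.89 and 6.07 CPM in sham to 1.77, 2.55 and 4.9 CPM. Of 24 tested effectors 11 fell, against 7% of all tested genes. In 10 of these all 9 ligated libraries lay below sham, as in 4.62% of all tested genes. The 11 were called from these same libraries, so a larger share among them follows from the choice. The list's median was -0.49 (-0.43 in BDL, -0.49 in AAV-GFP and -0.49 in AAV-VEGFC). The 1 riser was Sgk1, a kinase induced by glucocorticoids, at 67.2, 70.9 and 94.3 CPM in sham and 59.8, 205 and 263 CPM in the ligated libraries, a change of 1.08 ± 0.27 (adjusted p = 0.0302). BDL and sham overlapped for Sgk1, and the vector groups lay 1.31 above BDL (adjusted p = 0.0134). Without sham 1, 4 effectors were called lower, and without other single libraries up to 15. Without sham 1 the adjusted p-values of Homer1, Ptgs2, Plk3, Pcsk1, Inhba and Sgk1 all passed 0.05, with highest values over the libraries left out of 0.0973, 0.0961, 0.0673, 0.113, 0.101 and 0.164. All 6 lost the call without sham 3 as well, Pcsk1, Inhba and Sgk1 without sham 2, and Sgk1 without AAV-GFP 2 or AAV-GFP 3. TGACG was in 12 of the 18 effector promoters found, against the 18.2% of all promoters. Of these 12 genes, only Arl5b, Dnajb5, Nptx2 and Plk3 were called lower, and Ccn1 had no row in the counts.

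Feedback inhibitors of ERK signalling, which are themselves induced by ERK, fell in the same libraries. Spry4, a Sprouty protein, stood at 28.3, 29.7 and 32.3 CPM in sham and at 11.8, 14.5 and 19.1 CPM in the ligated libraries, a change of -1.0 ± 0.09 (adjusted p = 7.5e-05). BDL stood at -0.67, and the vector groups lay lower still, by -0.49 (adjusted p = 0.00708). Spred1, which holds Ras inactive through neurofibromin, stood at 89, 84.9 and 87.9 CPM in sham against 49.4, 59.8 and 69.7 CPM, a change of -0.58 ± 0.10 (adjusted p = 0.00428). Spred2 fell by 0.45 ± 0.10 (adjusted p = 0.0181), Spred3 by 0.44 ± 0.09 (adjusted p = 0.0125), Spry2 by 0.41 ± 0.10 (adjusted p = 0.0316), and the phosphatases Dusp4 and Dusp6 by 0.66 ± 0.17 (adjusted p = 0.0303) and 0.57 ± 0.14 (adjusted p = 0.0301). These 7 of 14 tested inhibitors had all 9 ligated libraries below sham, as did 4.62% of all tested genes, and 7% of all tested genes were called lower. No member rose, 11 of the 14 were negative in all 3 groups, and the median was -0.44. Without sham 1 only 2 were called, and 2 in the fit with 1 mean. Spry4 and Spred1 kept the call with each of the 12 libraries left out, whereas Spred2, Spred3, Spry2, Dusp4 and Dusp6 lost it without any 1 sham library, at adjusted p-values up to 0.127, 0.0773, 0.155, 0.146 and 0.129, Spry2 also without BDL 1, BDL 3 or AAV-GFP 2, Dusp4 without BDL 1, BDL 2 or AAV-GFP 3, and Dusp6 without BDL 3.

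Several of the largest changes were in genes outside these lists. Mrpl30, a protein of the mitochondrial ribosome, stood at 1.49, 1.24 and 1.29 CPM in sham and at 3.53, 5.92 and 9.91 CPM in the ligated libraries, a change of 2.16 ± 0.29 (adjusted p = 0.00129). Ccdc77, a coiled-coil protein, stood at 9.73, 9.62 and 10.04 CPM in sham against 1.95, 2.45 and 3.73 CPM, a change of -1.97 ± 0.15 (adjusted p = 3.58e-05) that was -1.82, -2.27 and -1.82 in the 3 groups. Fat2, a large protocadherin, fell by 1.79 ± 0.30 (adjusted p = 0.00431), Gpr3, a receptor with constitutive activity, by 1.62 ± 0.25 (adjusted p = 0.00255) and Serinc2 by 1.08 ± 0.12 (adjusted p = 0.000414). Nfe2l3, a transcription factor related to Nrf2, rose by 1.99 ± 0.37 (adjusted p = 0.00658), Fmo2, a flavin monooxygenase, by 2.44 ± 0.52 (adjusted p = 0.0138) and C4b, a complement component, by 2.02 ± 0.48 (adjusted p = 0.0237). The calls of Fmo2 and C4b were lost without sham 1 or sham 2 (adjusted p up to 0.0902 and 0.138), and that of Fmo2 without sham 3 as well. Clcf1, a cytokine, and Col13a1, a membrane collagen, fell by 1.14 ± 0.30 (adjusted p = 0.0353) and 1.21 ± 0.32 (adjusted p = 0.0342), and both lost the call without any 1 sham library (adjusted p up to 0.168 and 0.164), Clcf1 also without any 1 BDL library and Col13a1 without BDL 1, BDL 3 or AAV-GFP 3.

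Other large changes sat mostly in the vector groups. Tmem252, a membrane protein, stood at 0.665, 0.693 and 0.454 CPM in sham and at 1.06, 7.39 and 15.2 CPM in the ligated libraries, a change of 3.13 ± 0.33 (adjusted p = 0.000299), with 1.43 in BDL, 3.73 in AAV-GFP and 4.25 in AAV-VEGFC. Col11a1, a fibrillar collagen, fell by 1.48 ± 0.10 (adjusted p = 2.98e-05), with -0.16 in BDL against -2.15 and -2.13 in the vector groups. Rn18s, which is 18S ribosomal RNA whose share also depends on how a library was made, rose by 1.91 ± 0.30 (adjusted p = 0.0032), with 0.50 in BDL, 2.50 in AAV-GFP and 2.74 in AAV-VEGFC. The higher Rn18s share thus moved with the genes that changed more in the vector groups, and its part in them was not tested.

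**Figure D4:**
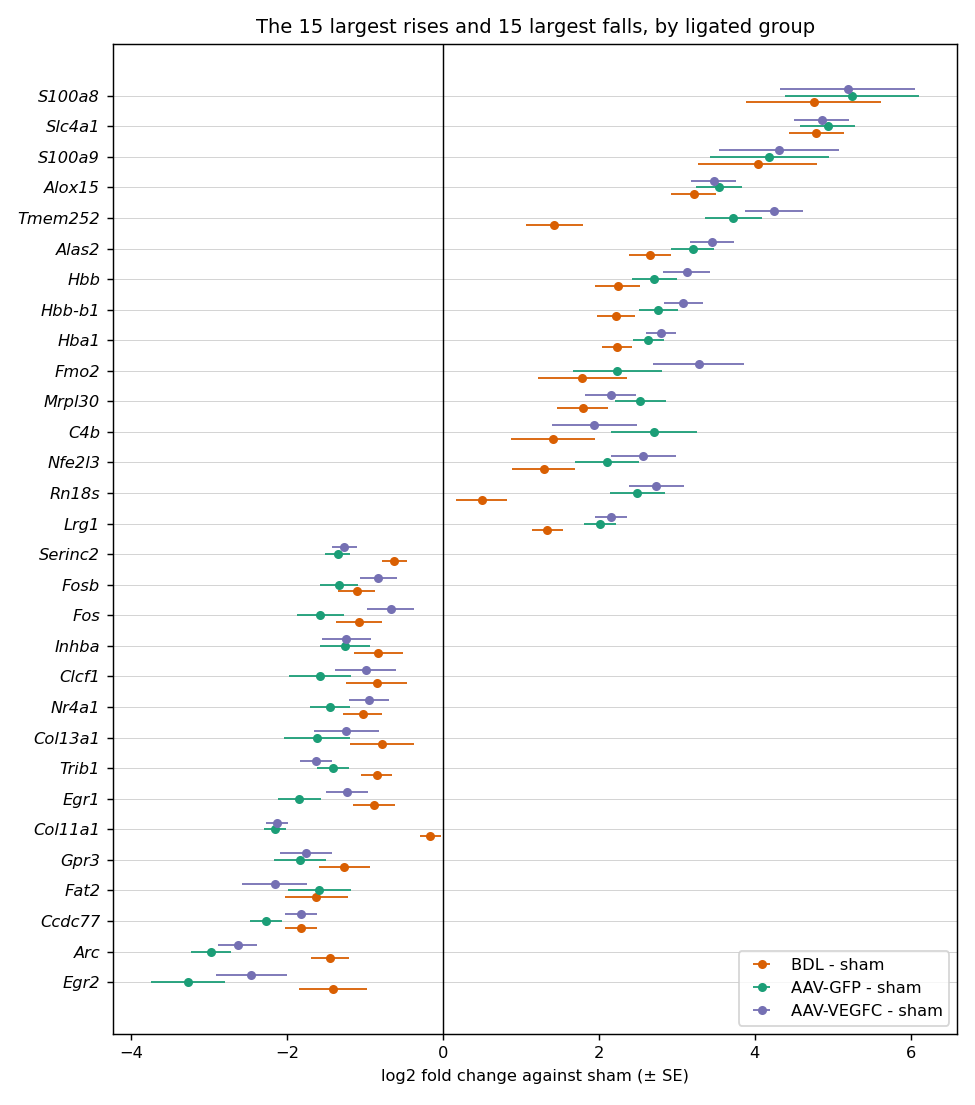
Points give the log2 fold change against sham (x axis) in each ligated group, with bars of ± SE, for the 15 largest rises and 15 largest falls among called genes of at least 1 CPM whose 9 ligated libraries all lay outside the sham range. Slc4a1, Alox15 and Ccdc77 lie close together in the 3 groups, whereas Tmem252, Rn18s, Col11a1, Arc and Egr2 change less in BDL.

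Several markers of blood vessel endothelium rose, for the larger part in the vector groups. Cldn5, the claudin of blood-brain barrier tight junctions, stood at 43.7, 48.1 and 47.3 CPM in sham and at 53.6, 110.1 and 158 CPM in the ligated libraries, a change of 1.06 ± 0.12 (adjusted p = 0.000338). It was 0.41 in BDL, 1.32 in AAV-GFP and 1.45 in AAV-VEGFC, and vector groups and BDL differed by 0.98 (adjusted p = 0.000363). Vwf, Abcb1a and Mfsd2a were more even by value. Vwf, the von Willebrand factor, stood at 42.7, 58.2 and 47.9 CPM in sham against 60.4, 99 and 114 CPM, a change of 0.93 ± 0.16 (adjusted p = 0.00556) that was 0.78 in BDL. Abcb1a, the drug exporter P-glycoprotein, stood at 32.2, 35.7 and 36.6 CPM in sham against 40.03, 59.1 and 73.9 CPM, a change of 0.75 ± 0.14 (adjusted p = 0.00703) with 0.56 in BDL. Mfsd2a, the lipid transporter that limits transcytosis, rose by 0.62 ± 0.11 (adjusted p = 0.00615) with 0.41 in BDL. For none of these 3 was a difference between vector groups and BDL called (adjusted p = 0.408, 0.201 and 0.096).

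Of 28 tested endothelial genes, 13 rose, against 3.02% of all tested genes, and none was called lower. In all 3 ligated groups 18 of the 28 had a positive change and 5 a negative one, and 1 had all 9 ligated libraries below sham. Without sham 2, AAV-GFP 1 and AAV-VEGFC 1, 14 were called higher and 2 lower, in a fit with 1481 genes higher and 1906 lower. Medians were 0.12 in BDL, 0.54 in AAV-GFP and 0.56 in AAV-VEGFC. Between vector groups and BDL 12 of the 28 differed, against 12.6% of all tested genes. Emcn rose by 0.85 ± 0.13 (adjusted p = 0.00255), Slc2a1, the glucose transporter of the barrier, by 0.63 ± 0.11 (adjusted p = 0.00443), Pecam1 by 0.55 ± 0.10 (adjusted p = 0.00741) and Slc7a5, a carrier of large amino acids, by 0.33 ± 0.07 (adjusted p = 0.0127). Abcg2, another exporter, rose by 0.91 ± 0.26 (adjusted p = 0.0488). Apold1 rose in the mean by 1.41 ± 0.26 (adjusted p = 0.00688) and Tek, the angiopoietin receptor, by 0.33 ± 0.09 (adjusted p = 0.031), but both had a negative value in BDL, at -0.60 and -0.07. In BDL, Slc2a1, Pecam1, Apold1 and Tek overlapped sham. Summed over the list, the level was 907 to 951 CPM in sham, 920 to 1127 in BDL, 1275 to 1355 in AAV-GFP and 1396 to 1497 in AAV-VEGFC, so BDL overlapped sham. Without sham 1 only 4 endothelial genes were called higher, and without other single libraries up to 16 higher and up to 1 lower. Vwf, Abcb1a, Pecam1, Apold1, Slc7a5, Abcg2 and Tek lost the call without sham 1 (highest adjusted p over the libraries left out 0.0543, 0.0617, 0.0673, 0.0604, 0.0948, 0.209 and 0.192), Slc7a5 also without sham 3, Tek without sham 2, sham 3, BDL 2 or AAV-GFP 3, and Abcg2 without any 1 library of sham, BDL or AAV-GFP.

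Vegfa and Flt1 moved in opposite directions. Vegfa, the main growth factor of blood vessels, fell by 0.50 ± 0.10 (adjusted p = 0.0108), at -0.12 in BDL, -0.67 in AAV-GFP and -0.71 in AAV-VEGFC. Flt1, one of its receptors, rose by 0.43 ± 0.08 (adjusted p = 0.00709), at 0.16, 0.52 and 0.60 in the same order. Both lost the call without sham 1 (adjusted p = 0.0643 and 0.0676), and both overlapped sham in BDL. Vegfc, which the vector of 1 group codes for, stood at 2.31, 2.36 and 2.56 CPM in sham, 1.95, 2.44 and 1.51 in BDL, 3.65, 2.83 and 3.52 in AAV-GFP and 2.65, 3.29 and 3.85 in AAV-VEGFC, so it does not separate the vectors. The sources used here do not give whether transcripts of the vector's own insert would be counted under that gene. The change of Vegfc in the mean was 0.21 ± 0.18 (adjusted p = 0.481). Of 17 tested genes of lymphatic vessels and the VEGF pathway 2 rose and 1 fell, beside 3.02% higher and 7% lower among all tested genes. The riser other than Flt1 was Ccl21, a lymphatic chemokine, by 2.48 ± 0.66 (adjusted p = 0.037) from 0.0782, 0.0815 and 0 CPM in sham to 0.108, 0.313 and 0.514 CPM. Ccl21 passed the filter on low counts only through ligated libraries. Its call was lost without any 1 of 8 libraries, the 3 of sham among them (adjusted p up to 0.129).

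Among 16 tested genes of the meninges and extracellular matrix 1 rose and 2 fell, beside 3.02% higher and 7% lower among all tested genes. The riser was Fn1, fibronectin, from 38.7, 43.1 and 42.9 CPM in sham to 49.6, 69.8 and 82.6 CPM. Its change of 0.74 ± 0.15 (adjusted p = 0.0122) was 0.72 in BDL, 0.77 in AAV-GFP and 0.72 in AAV-VEGFC, and was lost without sham 1 or sham 3 (adjusted p up to 0.0912). Col5a1 and Fbn1, a fibrillar collagen and fibrillin 1, fell by 1.55 ± 0.16 (adjusted p = 0.000215) and 0.63 ± 0.10 (adjusted p = 0.00356) in the mean only through the vector groups, since BDL stood at 0.01 and 0.28. Of 15 tested pericyte and smooth muscle genes none was called by edgeR, although 8 were higher at an unadjusted p under 0.05. DESeq2 called 6 and limma voom 8, and edgeR called up to 5 with 1 library left out. Without sham 2, AAV-GFP 1 and AAV-VEGFC 1, edgeR called 3 higher, in a fit with 1481 genes higher and 1906 lower.

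Of the genes of activated microglia and macrophages 8 of 19 rose, and of those of resting microglia 2 of 18, against 3.02% of all tested genes. Lyz2, the lysozyme of myeloid cells, stood at 26.4, 27.5 and 26.3 CPM in sham and at 36.1, 47.5 and 71.9 CPM in the ligated libraries, a change of 0.97 ± 0.11 (adjusted p = 0.000344) with 0.57 in BDL, 1.39 in AAV-GFP and 0.96 in AAV-VEGFC. Cd163, the haemoglobin scavenger receptor of perivascular macrophages, stood at 0.938, 0.51 and 0.574 CPM in sham against 1.21, 1.74 and 2.13 CPM, a change of 1.28 ± 0.27 (adjusted p = 0.0136) that was 1.44 in BDL. Mrc1, the mannose receptor of the same cells, rose by 0.66 ± 0.16 (adjusted p = 0.0229), with 0.69 in BDL. These 2 macrophage receptors thus changed at least as much in BDL alone as in the mean. Clec7a, the beta-glucan receptor of activated microglia, rose by 2.36 ± 0.51 (adjusted p = 0.0146), from 0.0586, 0.102 and 0.12 CPM to 0.242, 0.429 and 1.13 CPM, and passed the filter on low counts only through ligated libraries. Cd14, the co-receptor for lipopolysaccharide, rose by 0.90 ± 0.21 (adjusted p = 0.0195). Lgals3, galectin 3, rose by 0.86 ± 0.24 (adjusted p = 0.0465), and the lysosomal proteases Ctsb and Ctsd by 0.18 ± 0.05 (adjusted p = 0.0458) and 0.21 ± 0.06 (adjusted p = 0.0406), with -0.02 for Ctsd in BDL.

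None of the 19 activated genes fell, and their median was 0.66, with 0.39 in BDL, 0.82 in AAV-GFP and 0.60 in AAV-VEGFC. Without sham 3 only 1 was called, and without other single libraries up to 12. Lyz2 kept the call with each library left out, whereas Cd163, Mrc1, Clec7a, Cd14, Lgals3, Ctsb and Ctsd lost it without 2 or more libraries, sham 3 among them each time, at adjusted p-values up to 0.0875, 0.151, 0.102, 0.106, 0.207, 0.209 and 0.183. Of the 18 genes of resting microglia, 16 were positive and 1 negative in all 3 groups, and 2 were called. Of all tested genes 60.4% had 1 sign, counted in either direction. They were Tmem119, at 0.78 ± 0.22 (adjusted p = 0.0435), and C1qc, the complement chain, at 0.82 ± 0.22 (adjusted p = 0.0421), each lost without any 1 sham library (adjusted p up to 0.154 and 0.188), Tmem119 also without BDL 1, BDL 3, AAV-GFP 3 or AAV-VEGFC 3, and C1qc without any 1 BDL library. Aif1 had a change of 0.67 ± 0.31 (adjusted p = 0.183). Resting markers summed to 505 to 575 CPM in sham, 554 to 655 in BDL, 657 to 983 in AAV-GFP and 605 to 1002 in AAV-VEGFC, so sham and BDL overlapped. Without sham 2, AAV-GFP 1 and AAV-VEGFC 1, 8 of the resting markers were called higher, 1 lower, and 11 of the activated ones higher.

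Rsad2, the antiviral protein viperin, stood at 2.85, 2.65 and 3.18 CPM in sham and at 4.68, 7.4 and 8.76 CPM in the ligated libraries, a change of 1.29 ± 0.17 (adjusted p = 0.001) with 1.04 in BDL. The other called interferon genes did not follow it in BDL. Ifit2 and Ifit3 rose in the mean by 0.53 ± 0.09 (adjusted p = 0.00601) and 1.41 ± 0.30 (adjusted p = 0.013), with -0.06 and -0.08 in BDL. Of 29 tested interferon genes these 3 rose, beside 3.02% of all tested genes, and the median was 0.04. In all 3 ligated groups 6 of the 29 had a positive change and 7 a negative one. Without sham 1 only Rsad2 was called (adjusted p = 0.0532 and 0.0873 for Ifit2 and Ifit3). Il1rn, the interleukin 1 receptor antagonist, rose by 1.19 ± 0.27 (adjusted p = 0.017), from 0.567, 0.53 and 0.526 CPM to 0.908, 1.17 and 1.93 CPM. Nfkbia, the NF-kB inhibitor, rose by 0.74 ± 0.16 (adjusted p = 0.0148), with -0.01 in BDL. Both were lost without sham 1 or sham 2 (adjusted p up to 0.0931 and 0.112), and Il1rn without sham 3 too. They were the called members of 13 tested cytokine genes, beside 3.02% higher and 7% lower among all tested genes. Il6, Tnf and Cxcl1 did not pass the filter on low counts.

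Of the 21 tested genes that handle ammonia and glutamate, 1 rose and none fell, beside 3.02% higher and 7% lower among all tested genes. The riser was Slc38a5, a glutamine transporter, which stood at 1.8, 1.9 and 1.43 CPM in sham and at 3.81, 4.5 and 6.33 CPM in the ligated libraries. Its change of 1.46 ± 0.18 (adjusted p = 0.000748) was 1.25 in BDL, 1.58 in AAV-GFP and 1.57 in AAV-VEGFC, and all 9 ligated libraries lay above sham. Glul, glutamine synthetase, which fixes ammonia in astrocytes, stood at 1962, 2019 and 1952 CPM in sham against 1869.5, 2186 and 2669 CPM, a change of 0.13 ± 0.07 (adjusted p = 0.223). BDL and the vector groups had opposite signs for Glul, at -0.07, 0.23 and 0.23, and differed by 0.30 (adjusted p = 0.0188). Glul was called without AAV-VEGFC 1 (adjusted p = 0.042). Without sham 2, AAV-GFP 1 and AAV-VEGFC 1 together 5 genes of the list were called higher and 3 lower, in a fit with 1481 genes higher and 1906 lower.

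Gfap, the astrocyte filament protein, stood at 639, 685 and 746 CPM in sham and at 486, 666 and 954 CPM in the ligated libraries, with a change of 0.00 ± 0.17 (adjusted p = 0.993), and its sign turned with library totals as scaling (-0.02) and with limma voom (-0.16). Aqp4, the water channel, had a change of -0.21 ± 0.12 (adjusted p = 0.297). Kcnj10, the potassium channel Kir4.1, fell by 0.29 ± 0.06 (adjusted p = 0.0157), from 94.3, 82.9 and 90.4 CPM to 66.6, 71.7 and 80.6 CPM, with -0.35, -0.28 and -0.22 in the 3 groups. Vim, vimentin, rose by 0.79 ± 0.18 (adjusted p = 0.0188) and Osmr, the oncostatin M receptor, by 1.10 ± 0.25 (adjusted p = 0.0188). These 2 were the called members of 18 tested genes of reactive astrocytes, and Vim and Kcnj10 those of 16 tested astrocyte genes, shares near the 10% of all tested genes. Vim is also made by endothelium. Without sham 2, AAV-GFP 1 and AAV-VEGFC 1, 6 of the astrocyte genes were called higher and 3 lower, in a fit with 1481 genes higher and 1906 lower. Kcnj10 lost the call without sham 1 or sham 3 and Vim and Osmr without any 1 sham library (adjusted p up to 0.127, 0.129 and 0.099).

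Of 20 tested oligodendrocyte genes, the transcription factors Olig1 and Olig2 rose by 0.35 ± 0.08 (adjusted p = 0.0202) and 0.50 ± 0.13 (adjusted p = 0.0322). Ugt8, the enzyme of galactocerebroside synthesis, fell by 0.29 ± 0.08 (adjusted p = 0.0462). Among all tested genes 3.02% were called higher and 7% lower. Olig2 was flat in BDL, at -0.01, and differed between vector groups and BDL by 0.76 (adjusted p = 0.00449). Ugt8 was at -0.35 in BDL, -0.24 in AAV-GFP and -0.30 in AAV-VEGFC. All 3 lost the call without any 1 sham library (adjusted p up to 0.13, 0.169 and 0.189). In 11 lists no member was called by edgeR. They covered cortical, inhibitory, striatal and midbrain monoamine neurons, hypothalamus and pituitary, choroid plexus, pericytes, antigen presentation, cholesterol synthesis, GABA-A receptors and glutamate receptors. Of their 172 tested members, 16 were higher and 12 lower at an unadjusted p under 0.05. DESeq2 called 11 higher and 5 lower, and limma voom 15 and 18. Of all 12850 tested genes, 3543 had an unadjusted p under 0.05 by edgeR, and DESeq2 called 2194 and limma voom 4506. By edgeR 10% of all tested genes were called, beside none of the 172. With 1 library left out edgeR called up to 5 pericyte genes higher, up to 3 genes of cholesterol synthesis higher and 2 lower, up to 1 glutamate receptor gene higher and 3 lower, and up to 1 GABA-A gene higher and 2 lower. It also called up to 1 gene lower in the cortical and inhibitory neuron lists, up to 1 higher in the hypothalamic list, and up to 1 in each direction in the choroid plexus list. The choroid plexus list had a median of -0.68, its sum ran from 208 to 632 CPM within sham, and sham 2 held the highest value.

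Clock genes changed in both directions. Ciart, a repressor of the clock, stood at 8.21, 8.62 and 7.94 CPM in sham and at 11, 12.7 and 25.6 CPM in the ligated libraries, a change of 0.80 ± 0.14 (adjusted p = 0.00588) with 0.54 in BDL, 0.59 in AAV-GFP and 1.26 in AAV-VEGFC. Dbp, an output factor driven by the clock, stood at 90.7, 121 and 96.8 CPM in sham against 125, 171 and 229 CPM, a change of 0.76 ± 0.12 (adjusted p = 0.00351), and its relative Tef rose by 0.29 ± 0.06 (adjusted p = 0.0163). The core activators fell, Arntl by 0.54 ± 0.12 (adjusted p = 0.0177) and Clock by 0.50 ± 0.10 (adjusted p = 0.0122), and so did Bhlhe40, a repressor that activity also induces, by 0.46 ± 0.09 (adjusted p = 0.0104). Arntl stood at 64.2, 55.2 and 57.6 CPM in sham and at 29.3, 42.3 and 47.5 CPM in the ligated libraries, with no overlap. So 3 of 16 tested clock genes rose and 3 fell, beside 3.02% higher and 7% lower among all tested genes. Dbp and Ciart kept the call with each library left out. Tef, Arntl, Clock and Bhlhe40 lost the call without sham 1 or sham 3, and Tef without sham 2 (adjusted p up to 0.112, 0.131, 0.101 and 0.0697). With the hour of killing unknown, ligation and hour cannot be told apart for these genes.

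The promoter of Ciart is printed because it holds 3 copies of CACGTG, the E-box that ARNTL and CLOCK bind, in capitals. It is the 250 bases before the start (RefSeq, GRCr8), chr2:186112247-186112496 on the minus strand.
Ciart: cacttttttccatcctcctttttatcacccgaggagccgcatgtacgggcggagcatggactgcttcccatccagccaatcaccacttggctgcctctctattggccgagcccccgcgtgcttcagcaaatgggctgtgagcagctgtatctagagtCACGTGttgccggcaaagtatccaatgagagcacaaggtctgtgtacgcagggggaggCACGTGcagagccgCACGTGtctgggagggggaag
The copies lay 93 to 88, 35 to 30 and 21 to 16 bases before the start. CACGTG, which reads the same on both strands, was in 4 of the 13 clock promoters found (Bhlhe40, Bhlhe41, Ciart and Tef) and in 5.59% of all promoters. Bhlhe41 had no row in the counts, and Bhlhe40 fell whereas Ciart and Tef rose.

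Among 16 tested glucocorticoid targets, 6 rose and none fell, beside 3.02% higher and 7% lower among all tested genes. The list's medians were 0.14 in BDL, 0.42 in AAV-GFP and 0.59 in AAV-VEGFC. Sult1a1, a sulfotransferase, stood at 6.08, 6.28 and 7.53 CPM in sham and at 11, 17.5 and 40.2 CPM in the ligated libraries, a change of 1.54 ± 0.35 (adjusted p = 0.0194) with 1.43 in BDL. Mt2A, a metallothionein, stood at 14.2, 15.9 and 15.3 CPM in sham against 18.2, 34.8 and 75.1 CPM, a change of 1.22 ± 0.34 (adjusted p = 0.0443) with 0.99 in BDL. Both rises were present in BDL by value, and AAV-VEGFC 1 held the highest level of both. Pdk4, a brake on glucose oxidation, rose by 1.21 ± 0.30 (adjusted p = 0.0265) and Ddit4, an inhibitor of mTOR signalling, by 0.60 ± 0.12 (adjusted p = 0.0112), the latter with 0.14 in BDL. The other 2 were Sgk1 and Nfkbia. Without sham 1 no target was called, and Sult1a1, Mt2A, Pdk4 and Ddit4 had adjusted p-values up to 0.111, 0.182, 0.154 and 0.0872 with 1 library left out.

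A few chaperones fell by small amounts. Hsph1, a heat shock protein of the cytosol, stood at 666, 630.5 and 650.1 CPM in sham and at 391, 505 and 536 CPM in the ligated libraries, a change of -0.38 ± 0.08 (adjusted p = 0.0136) with -0.34, -0.34 and -0.45 in the 3 groups. Hspa8 fell by 0.23 ± 0.05 (adjusted p = 0.0181), and Hspa5 and Hsp90b1, chaperones of the endoplasmic reticulum, by 0.23 ± 0.05 (adjusted p = 0.0187) and 0.18 ± 0.04 (adjusted p = 0.023). All 9 ligated libraries lay below sham for each of these 4 of 22 tested chaperones, as for 4.62% of all tested genes, and 7% of all tested genes were called lower. The list's median was -0.004, with -0.18 in BDL, 0.05 in AAV-GFP and 0.02 in AAV-VEGFC. Its sum was 6619 to 6694 CPM in sham, 5905 to 6075 in BDL, 6555 to 6766 in AAV-GFP and 6351 to 6634 in AAV-VEGFC. So by sum BDL lay below sham, and the vector groups overlapped it. Between vector groups and BDL 6 of the 22 differed, beside 12.6% of all tested genes. Each of the 4 lost the call without sham 1 and without at least 1 other sham library (adjusted p up to 0.0996, 0.108, 0.129 and 0.135). Among all tested genes 10% were called. Ch25h, which makes 25-hydroxycholesterol, rose by 1.07 ± 0.28 (adjusted p = 0.0367), the 1 called member of 14 tested oxysterol and bile acid genes. Cat, catalase, rose by 0.24 ± 0.06 (adjusted p = 0.0228), the 1 called of 17 Nrf2 targets. Without sham 2, AAV-GFP 1 and AAV-VEGFC 1, 6 targets were called higher and 1 lower, in a fit with 1481 genes higher and 1906 lower. The calls of Ch25h and Cat were lost without any 1 sham library (adjusted p up to 0.163 and 0.155). In the list of hypoxia and metabolism, with 13 tested genes, Slc2a1 rose and Vegfa fell, beside 3.02% higher and 7% lower among all tested genes.

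**Figure D5:**
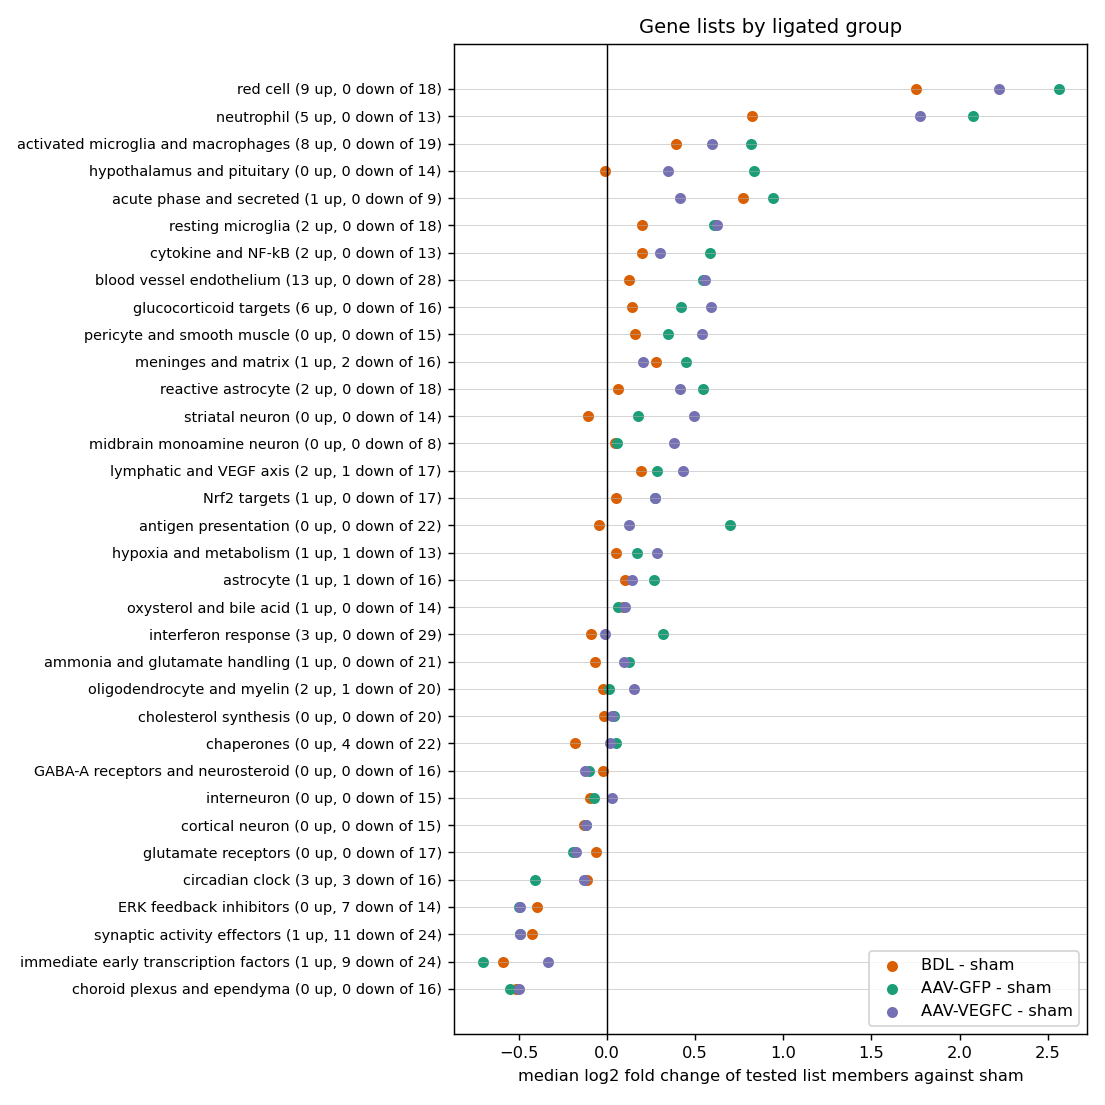
Points give the median log2 fold change of each list's tested genes (x axis) in BDL, AAV-GFP and AAV-VEGFC against the same sham libraries, and the labels count the members called higher and lower in the mean of the ligated groups. The activity-linked lists lie left of 0 in all 3 groups, the red cell and neutrophil lists lie to the right but hold genes that could be tested only because they were high after ligation, and the endothelial median is 0.12 in BDL and 0.54 and 0.56 in the vector groups.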

How the data were processed

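Brain RNA was extracted with Trizol and made into libraries with a TruSeq kit, per the labels' protocols. The submitters' processing notes name FastQC, Trimmomatic 0.36, HISAT2, featureCounts and the rn6 build; the sources used here do not give strandedness, annotation or settings. The authors deposited whole-number read counts per gene symbol, not normalized, for 12 libraries, as 1 joint table and 11 single files that hold the same values. Of 17337 rows, 4 carry a repeated name and 26 are date-like. Genes that overlap or lie antisense cannot be told apart without strand.

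From the deposited counts, edgeR 4.0.16 in R 4.3.3 computed TMM factors, kept 12850 genes with filterByExpr (minimum count 10), and fitted 1 quasi-likelihood model with a mean for each of the 4 groups, in which all groups share 1 estimate of the spread. Contrasts were the equal-weight mean of the 3 ligated groups against sham, each ligated group against sham, the vector groups against BDL, and any difference among the ligated groups. The SE is the fold change divided by the root of F. CPM values use the TMM factors. A gene at 0 in sham was given a bound from 3 counts over the group. The test of the mean of the ligated groups against sham was checked on simulated data, and the other tests were not. Plots were made in Python 3.11.15 with matplotlib 3.10.9.

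The comparison, the 34 gene lists and the rule for named genes were chosen with earlier results of these data known, so lists are described by counts and medians, with no test. The rule named, among called genes of 1 sign, at least 1 CPM and all 9 ligated libraries outside sham, the 15 largest rises and 15 largest falls, the 2 smallest p-values of every list, and Slc4a1, Alas2, Hba1, Hbb, Arc, Egr1, Egr3, Fos, Nr4a1, Spry4, Dusp6, Glul, Gfap, Aqp4, Aif1, Cldn5 and Vegfc. Other called list members and genes were named after their values were seen; locus numbers were counted only, and some list members are not reported here. Alternatives were DESeq2 1.42.0 size factors and its own test, library totals alone, limma 3.58.1 voom with quality weights, 2 other filters, an adjusted p under 0.1, sva 3.50.0 with 1 surrogate variable, the compared groups alone, 1 mean for the ligated libraries, and leaving out libraries. Counts of list members under these settings were added after seeing the data. Between libraries of 1 group, chi-square per degree of freedom was 11.6 to 226.5, so none agreed within sampling noise. Nothing beyond the design text says that libraries came from separate rats, so p-values measure the spread between these libraries.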

Additional observations from a re-analysis of the deposited data

Results flagged for a closer look

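In 38 of the 114 genes given above with an adjusted p, the vector groups and BDL differed in their change against sham. The test was edgeR's quasi-likelihood test of the difference, with Benjamini-Hochberg adjustment over all tested genes. The share over all tested genes was 12.6%, and most of the 114 were named for their change in a mean that holds these groups, so the count describes them only. The difference, on the log2 scale as vector groups minus BDL, was above 0 in 26 genes: Apold1 3.01, Tmem252 2.56, Ifit3 2.23, Rn18s 2.12, Sgk1 1.31, Nfkbia 1.12, Cldn5 0.98, Ifit2 0.89, Olig2 0.76, Lrg1 0.75, Vegfc 0.75, Hbb-b1 0.71, Pecam1 0.70, Emcn 0.70, Ddit4 0.70, Slc2a1 0.61, Tek 0.61, Lyz2 0.60, Flt1 0.39, Ctsd 0.34, Glul 0.30, Bpgm 0.28, Slc7a5 0.27, Tef 0.27, Ctsb 0.25, Cat 0.25. It was below 0 in 12 genes: Col5a1 -2.34, Col11a1 -1.98, Egr2 -1.45, Fbn1 -1.36, Arc -1.36, Ptgs2 -0.75, Serinc2 -0.69, Trib1 -0.67, Vegfa -0.57, Spry4 -0.49, Clock -0.43, Spred3 -0.37. The Rn18s share was higher in the same libraries, and no injection is stated for BDL, so vector, injection and library preparation cannot be told apart here.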

How the results depend on the processing

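Of the 108 called genes given above with an adjusted p, all kept their direction under every setting run and 28 kept the call under every one. With each of the 12 libraries left out in turn, 43 kept the call and 46 lost it only without sham libraries. Arl5b and Dnajb5, named as called without values, were not followed in this way. Of the 6 genes with an adjusted p that were not called, 4 were called under some setting. Gfap, near 0, turned negative with library totals (-0.016), limma voom with quality weights (-0.16), the replicate block (-0.016), the surrogate variable (-0.052), without sham 2, AAV-GFP 1 and AAV-VEGFC 1 together (-0.16), and with 1 library left out (range -0.11 to 0.058; without sham 1 -0.05, sham 2 -0.0014, BDL 2 -0.01, BDL 3 -0.0063, AAV-GFP 1 -0.04 and AAV-VEGFC 1 -0.11).

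The count of genes for all ligated libraries against sham, 1287 with 30.1% higher, was 2194 with DESeq2 (41.6% higher), 4506 with limma voom (45.5%), 1945 with a surrogate variable (34.2%), 2157 at an adjusted p under 0.1 (37.4%), 3387 without the 3 libraries that stood apart (43.7%) and 64 with 1 mean for the ligated libraries (50%); with 1 library left out it was 378 to 3199 (18.3% to 45.2% higher). For BDL against sham, 14, these were 108, 347, 19, 23 and 209 for the first 5 settings in that order, 332 with the 2 groups fitted alone, and 12 to 74 with 1 library left out. For AAV-GFP, 1578, they were 2396, 6103, 1977, 2451, 4428, 3756 alone and 625 to 4373. For AAV-VEGFC, 2394, they were 3476, 3368, 3855, 3722, 3471, 702 alone and 983 to 3205. For the vector groups against BDL, 1614, they were 2505, 4185, 2851, 2565, 3955 and 737 to 3225. For any difference among ligated groups, 963, they were 2001, 4871, 2105, 1526, 4514 and 424 to 3169. Library totals gave 1334 genes with 21.9% higher for all ligated libraries, 22.5% against 32.1% for AAV-GFP, 28.2% against 42.9% for AAV-VEGFC and 13.3% against 28.1% for vector groups against BDL. The groups share replicate numbers, but of 18 same-numbered pairs 0 had deviations correlated over 0.1 (range -0.1285 to 0.0686). So no pairing by number was seen over all genes, and this measure cannot show a pairing that touches few genes. With the replicate number as a block the count for all ligated libraries was 927, and 12, 1172, 1708, 1187 and 644 for the others in the order above; the cause of these shifts was not tested. Genes under the filter, such as Elane and Mpo, lie below what this depth can compare.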
